A study of Mus musculus with 20 samples.

Results

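The macrophage genes followed here numbered 10: Cd68, Csf1r, Cd5l, Lyz1, Lyz2, C1qa, C1qb, Cd163, Mrc1 and Tyrobp. Every probe set that the array's annotation ties to one of these symbols alone was taken, which gave 16 probe sets among 45037. RNA from 20 samples of the mouse was measured on Affymetrix Mouse Genome 430 2.0 arrays, with 1 array a sample, and each probe set has 1 intensity an array, on a linear scale. The mice carried a MYCN transgene (Tg) or were wild type (WT). MYCN is an oncogene of neuroblastoma, a childhood tumor of the sympathetic nervous system. The samples were 2 tumorsphere cultures and 4 tumors of MYCN Tg hemizygotes, 2 tumors of MYCN Tg homozygotes with Mdk KO, 4 tumors and 2 ganglia of MYCN Tg homozygotes, and 2 neurosphere cultures and 4 ganglia of WT mice. Transgenic samples had a genetic background labelled mixed 129+Ter/SvJcl and WT samples one labelled 129+Ter/SvJcl, so background and genotype cannot be told apart. The ages, the promoter of the transgene and any pooling of animals are not given in the sources used here. Whether samples of a group are separate animals is not in the labels, so the p-values rest on a spread that may be technical.

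Macrophages are phagocytes that settle in nearly every tissue, depend on signals through the CSF1 receptor and digest what they take up in lysosomes. Lysosomal and secreted products such as CD68, the lysozymes and C1q are held in large amount by many tissue macrophages, whereas the scavenger receptors CD163 and CD206 (Mrc1) mark subsets. In tumors such cells are called tumor-associated macrophages, and peripheral ganglia hold resident macrophages of their own. None of the 10 genes is strictly limited to macrophages: lysozyme is also made by neutrophils, and CD206 by liver and lymphatic endothelium.

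The 250 bases before the RefSeq transcription start (build GRCm38.p6) are shown for members whose levels the results turn on. Windows were found for 7 of the 10 genes. Capitals in the first group mark GAGGAA, a core of the site bound by PU.1, the ETS factor of the myeloid lineage, read on either strand, so TTCCTC also counts.
Cd68, chr11:69666171-69666420, minus strand: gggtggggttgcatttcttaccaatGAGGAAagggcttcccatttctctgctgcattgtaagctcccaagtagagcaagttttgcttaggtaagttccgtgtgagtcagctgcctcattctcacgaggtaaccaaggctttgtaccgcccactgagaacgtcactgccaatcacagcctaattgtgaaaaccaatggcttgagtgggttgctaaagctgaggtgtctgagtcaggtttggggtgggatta
Cd5l, chr3:87357631-87357880, plus strand: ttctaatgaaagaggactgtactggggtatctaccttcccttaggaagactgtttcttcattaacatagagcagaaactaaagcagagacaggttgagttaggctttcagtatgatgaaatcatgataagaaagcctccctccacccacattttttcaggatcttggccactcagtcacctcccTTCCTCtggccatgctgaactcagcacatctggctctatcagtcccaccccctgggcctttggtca
C1qb, chr4:136886201-136886450, minus strand: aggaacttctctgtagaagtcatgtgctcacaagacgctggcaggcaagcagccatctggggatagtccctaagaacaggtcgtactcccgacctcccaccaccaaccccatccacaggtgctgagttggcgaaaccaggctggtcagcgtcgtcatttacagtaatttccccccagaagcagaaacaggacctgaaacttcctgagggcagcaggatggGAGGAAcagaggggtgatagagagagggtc
Mrc1, chr2:14229164-14229413, plus strand: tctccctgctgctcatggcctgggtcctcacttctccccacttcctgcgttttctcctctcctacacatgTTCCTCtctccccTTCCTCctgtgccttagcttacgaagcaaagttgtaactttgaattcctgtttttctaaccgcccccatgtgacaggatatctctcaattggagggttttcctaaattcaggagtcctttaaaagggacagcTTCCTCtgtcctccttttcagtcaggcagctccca
The letters were present in the windows of these 4 genes and absent from those of Lyz1, Lyz2 and Cd163. Across all promoter windows of this length in the RefSeq table, 7639 of 32851 (23.25%) held them. A match is a description of the letters and not a site.

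The neighbouring lysozyme genes are printed as a pair because their signals are hard to separate on this array. Capitals mark the last 50 bases before the start, which are identical in both.
Lyz1, chr10:117292869-117293118, minus strand: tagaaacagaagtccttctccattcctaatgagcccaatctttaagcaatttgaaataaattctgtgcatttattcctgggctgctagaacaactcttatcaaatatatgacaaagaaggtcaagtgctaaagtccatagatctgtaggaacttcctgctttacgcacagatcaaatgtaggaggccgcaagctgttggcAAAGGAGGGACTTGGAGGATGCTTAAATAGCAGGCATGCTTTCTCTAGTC
Lyz2, chr10:117282273-117282522, minus strand: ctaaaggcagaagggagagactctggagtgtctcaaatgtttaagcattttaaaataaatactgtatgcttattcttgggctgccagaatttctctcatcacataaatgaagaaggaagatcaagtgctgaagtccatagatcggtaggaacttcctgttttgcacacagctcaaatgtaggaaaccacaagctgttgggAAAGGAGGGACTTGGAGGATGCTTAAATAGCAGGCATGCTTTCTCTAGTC
Over the whole window, compared base by base without gaps, 152 of 250 positions (60.8%) were identical.

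The labelled tissues matched their markers in part. Th, the enzyme that starts catecholamine synthesis, averaged 3212 ± 163 in tumorspheres but 11.9 ± 3.11 in neurospheres (SD, n = 2 each), against 2401 ± 749.6 in WT ganglia (SD, n = 4). Neurospheres were high in the neural progenitor gene Sox2, at 3539 ± 344 (SD, n = 2). Mdk, which encodes the growth factor midkine, had 42.6 and 35.5 in Mdk KO tumors, against 297, 268, 269 and 271 in homozygous tumors. The ratio of 3' to 5' signal of beta-actin, a sign of RNA quality, was 1.96 to 2.69 in hemizygous tumors and 2.44 to 2.81 in homozygous tumors, against 4.36 to 9.14 in WT ganglia. It was 4.68 and 4.02 in homozygous ganglia, 7.77 and 3.78 in neurospheres and 2.64 and 2.34 in tumorspheres. The same ratio of Gapdh was 3.37 and 11.5 in neurospheres, against 3.13 and 2.68 in tumorspheres. Acta1, a gene of skeletal muscle, was over 100 on 6 arrays (hemizygous tumor 3, Mdk KO tumor 2, homozygous tumor 2, homozygous ganglion 2 and WT ganglia 1 and 2). WT ganglia 1 and 2 stood apart from 3 and 4 in several members, as given below. Over all probe sets tested, 20.6% were lower in hemizygous and 20.9% in homozygous tumors than in WT ganglia. Sympathetic neuron markers were lower in 6 of 6 cases in hemizygous and 5 of 6 in homozygous tumors. So were 5 of 5 Schwann and satellite glia markers in both. The part that these differences had in the results was not tested. Values without the 6 arrays stand beside calls they changed, but for homozygous against WT ganglia only the count is given.

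**Figure D1:**
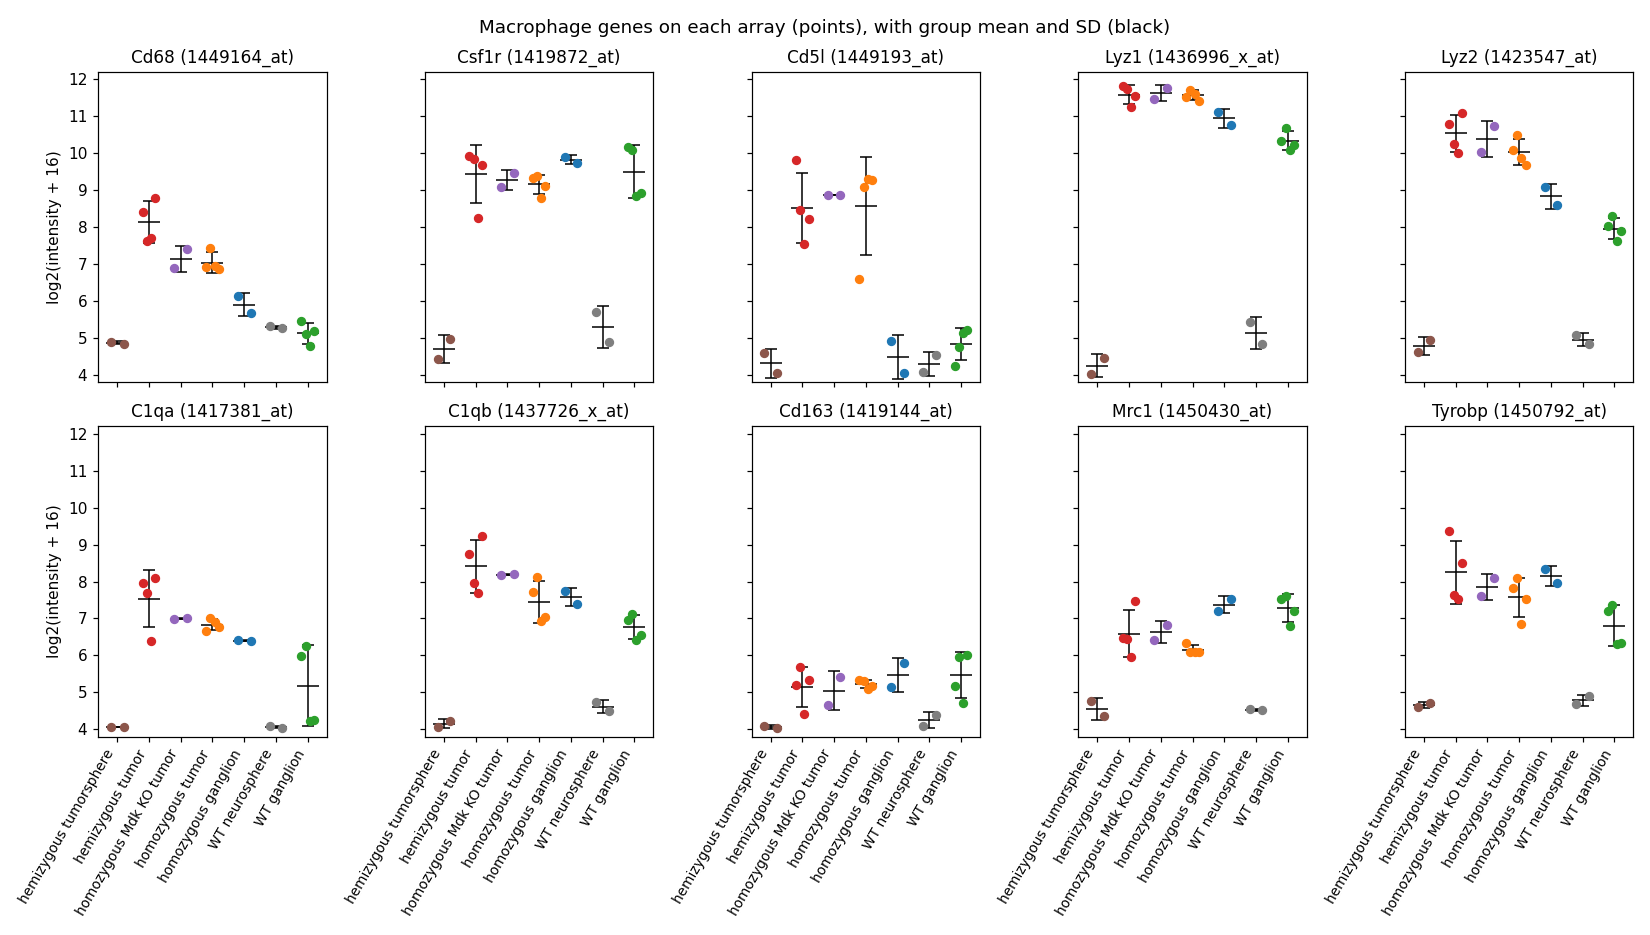
Level, as log2(intensity + 16), of the brightest probe set of each of the 10 genes, with 1 point an array, the 7 groups along the horizontal axis and black marks for mean ± SD. Lyz1 had an intensity of at least 2411 on all tumor arrays and at most 27.1 in both cultures. The signal of the Lyz1 probe set shown cannot be told apart from that of Lyz2.

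Tumors were first set against WT ganglia, the labelled normal tissue. Genes for products of digestion and opsonization (Cd68, Lyz2, C1qa and C1qb) and the secreted scavenger protein gene Cd5l were higher in tumors. So were the Lyz1 probe sets that exceeded the filter, but their signal cannot be told apart from that of Lyz2. Tyrobp was higher in hemizygous tumors, Mrc1 was lower in tumors, and Csf1r and Cd163 did not pass the test. Of the 16 probe sets, 15 exceeded the filter on low values. In hemizygous tumors 10 of them were higher and 1 lower than in WT ganglia, against a background of 26.8% higher and 20.6% lower (47.4% in either direction) among all 34922 probe sets tested. In homozygous tumors 8 were higher and 1 lower, against 25.8% and 20.9% (46.7% in either direction). The higher probe sets belonged to 7 genes in hemizygous and 6 in homozygous tumors, Lyz1 counted among them. Probe sets of the same gene are not separate results. The median log2 difference of the 15 was 1.45 in hemizygous and 0.83 in homozygous tumors, beside 0.02 and -0.01 over all probe sets tested. Both comparisons use the same 4 WT ganglia. All adjusted p-values are from limma with Benjamini-Hochberg adjustment over all probe sets tested. In whole tissue, fewer cells of a type and less RNA per cell cannot be told apart.

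Cd68 encodes a glycoprotein of late endosomes and lysosomes. Its intensity was 323, 180.1, 193 and 429 in hemizygous tumors, against 27.6, 18.2, 11.2 and 20.7 in WT ganglia. No tumor array came near the ganglia, and the group means were 281 ± 117 and 19.4 ± 6.77 (SD, n = 4 each; log2 fold change 3.0, SE 0.24, adjusted p = 7.9e-09). The homozygous tumors had 105, 158, 107 and 99.6 (log2 fold change 1.91, SE 0.24, adjusted p = 2.8e-06 against the same ganglia). They too lay entirely above WT ganglia and entirely below the hemizygous tumors. In order of level, hemizygous tumors came first, then Mdk KO tumors at 128 ± 34.8 and homozygous tumors at 117 ± 27.4, which overlapped, then homozygous ganglia at 44.3 ± 13.2, and last neurospheres at 23.1 ± 1.14, WT ganglia and tumorspheres at 13.1 ± 0.766. Neurospheres overlapped WT ganglia, and so did tumorspheres.

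The lysozymes break down bacterial cell walls, and in the mouse Lyz2 is the macrophage form and Lyz1 the form of Paneth cells. Lyz2 had 1745, 1207, 1006 and 2178 in hemizygous tumors, against 244, 297, 179 and 221 in WT ganglia (log2 fold change 2.58, SE 0.25, adjusted p = 9.1e-08). Homozygous tumors had 1064, 1432, 912 and 805 (log2 fold change 2.08, SE 0.25, adjusted p = 1.6e-06). Every tumor array was far above the highest WT ganglion, at 297. Of the 3 Lyz1 probe sets, 1439426_x_at had 2464, 3163, 2238 and 2669.9 in hemizygous tumors, 2715, 3095, 2816 and 2471 in homozygous tumors and 424, 535, 317 and 413 in WT ganglia. It rose by a log2 of 2.61 in hemizygous tumors (adjusted p = 4.1e-10) and 2.69 in homozygous tumors (adjusted p = 4.3e-10). The brighter 1436996_x_at rose by 1.25 and 1.23 against the same ganglia, with 3084 ± 509 in hemizygous tumors, 3026 ± 274 in homozygous tumors and 1289 ± 244 in WT ganglia (SD, n = 4 each). The third, 1450822_at, lay between 0.538 and 16.3 on all 20 arrays and was the member probe set left out by the filter. The ending x marks probes that can match other transcripts, so the signal credited to Lyz1 cannot be told apart from that of Lyz2. On the log2 scale 1439426_x_at followed Lyz2 across the 20 arrays with a Pearson r of 0.985, given as a description.

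**Figure D2:**
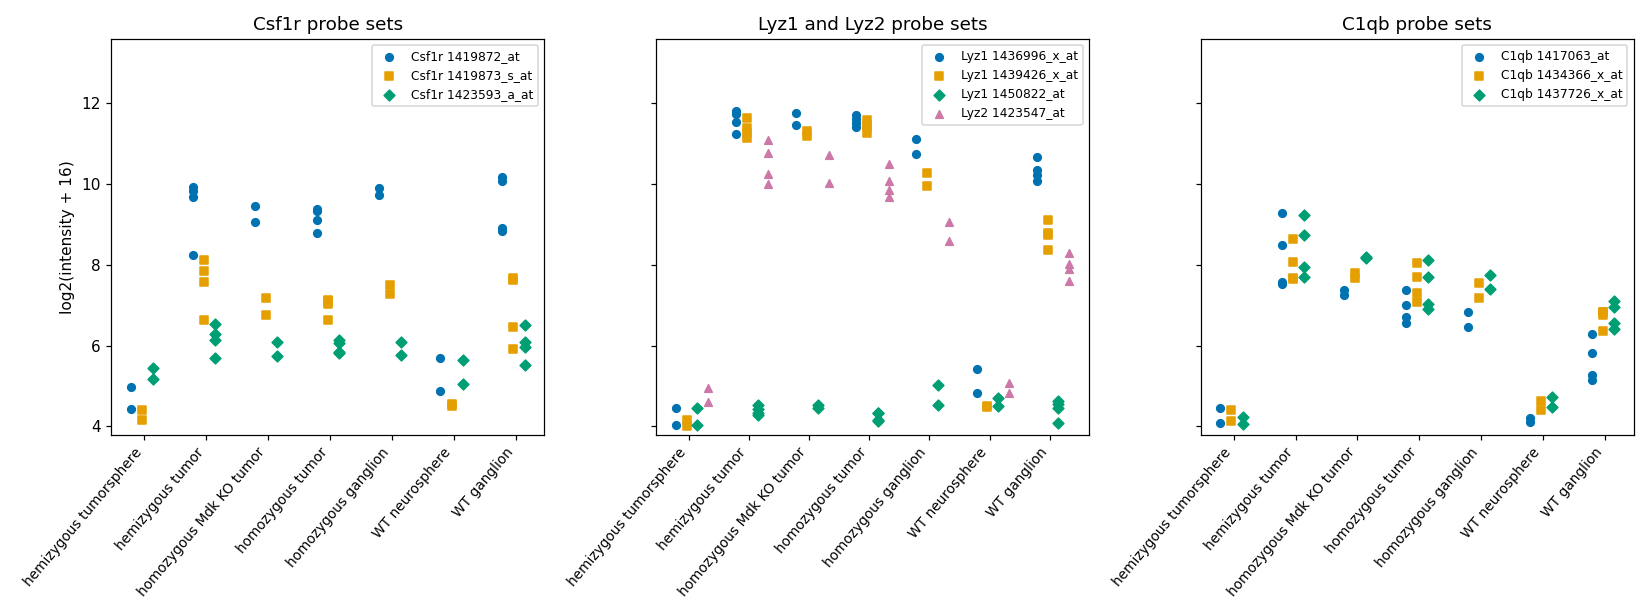
Level, as log2(intensity + 16), of each probe set of Csf1r, of Lyz1 and Lyz2, and of C1qb, with 1 point an array and the 7 groups along the horizontal axis. The Lyz1 probe set 1450822_at stayed at or under an intensity of 16.3 while the other two were among the brightest points in tumors.

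C1qa and C1qb encode chains of C1q, the recognition molecule of the classical complement pathway, which in most tissues is made by macrophages. C1qa had 231, 189.8, 68.3 and 258 in hemizygous tumors and 85.1, 113, 103 and 93.4 in homozygous tumors, against 47.1, 61.0, 2.76 and 3.18 in WT ganglia. WT ganglia 3 and 4 were near the floor and 1 and 2 were not. The log2 fold change was 2.35 (adjusted p = 7.3e-05) in hemizygous tumors and 1.65 (adjusted p = 0.0021) in homozygous tumors. Against WT ganglia 1 and 2 alone the second became 0.71 (adjusted p = 0.075). C1qb has 3 probe sets. The brightest, 1437726_x_at, had 413, 233, 191 and 589 in hemizygous tumors, 194, 263, 105 and 115 in homozygous tumors and 109, 122, 69.5 and 78.0 in WT ganglia. Homozygous tumor 3 fell among the WT ganglia, while all hemizygous tumors lay above them. The probe set rose in hemizygous tumors by 1.65 (adjusted p = 0.00016), and its difference in homozygous tumors was 0.69 (adjusted p = 0.069). The other two probe sets passed in both: 1417063_at by 2.59 and 1.28, and 1434366_x_at by 1.31 and 0.83. With WT ganglia 1 and 2 alone, 1417063_at in homozygous tumors was 0.86 (adjusted p = 0.067). Without WT ganglion 2, homozygous tumor 3 or homozygous tumor 4 the 1437726_x_at difference passed, at 0.80, 0.86 and 0.82, as it did against WT ganglia 3 and 4 alone (0.96, adjusted p = 0.033).

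Cd5l, also named AIM, encodes a secreted scavenger protein of tissue macrophages that is induced by LXR receptors. It separated tumors from every other group: hemizygous tumors had 876, 335, 171 and 281, Mdk KO tumors 454 and 453 and homozygous tumors 80.5, 529.8, 612 and 605, while the highest of the other 10 arrays had 20.8. WT ganglia had 2.91, 10.99, 19.1 and 20.8 (log2 fold change 3.67, SE 0.50, adjusted p = 7.4e-06 in hemizygous tumors; log2 fold change 3.73, SE 0.50, adjusted p = 7.3e-06 in homozygous tumors). The spread within tumors was wide, with hemizygous tumor 1 and homozygous tumor 1 at opposite ends of the range. Homozygous ganglia had 13.9 and 0.681, at the level of WT ganglia, although they carry the transgene.

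Csf1r encodes the receptor for CSF1 and IL-34 on which macrophages depend. The brightest of its 3 probe sets, 1419872_at, had 961, 902, 289 and 808 in hemizygous tumors and 629, 650.5, 428 and 535 in homozygous tumors, against 1139, 1061, 442 and 469 in WT ganglia. The groups overlapped and no probe set of the gene passed in either tumor group, with log2 differences of -0.07 (95% interval -0.81 to 0.66) and -0.35 (-1.09 to 0.39) for 1419872_at. The direction in hemizygous tumors turned with the ganglia taken: -0.70 (adjusted p = 0.13) against WT ganglia 1 and 2, 0.55 (adjusted p = 0.22) against 3 and 4, and 0.94 (adjusted p = 0.0094) without the 6 arrays with high Acta1. In homozygous tumors 1419872_at passed as lower against WT ganglia 1 and 2 alone (-0.97, adjusted p = 0.037), and its difference was 0.27 (adjusted p = 0.56) against 3 and 4. The dimmer 1419873_s_at, at 184 ± 76.3 in hemizygous tumors and 122 ± 74.3 in WT ganglia (SD, n = 4 each), differed by 0.62 (adjusted p = 0.14). It passed without hemizygous tumor 3 at 0.93, without WT ganglion 1 at 0.87, without WT ganglion 2 at 0.86 and without the 6 arrays at 1.66, where it also passed in homozygous tumors (0.73, adjusted p = 0.023). Against WT ganglia 3 and 4 alone it passed in both, at 1.35 in hemizygous and 0.78 in homozygous tumors. The 1423593_a_at probe set stayed between 17.1 and 77 on all arrays.

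Tyrobp encodes DAP12, the adaptor through which receptors such as TREM2 signal. It had 639, 182, 168 and 343 in hemizygous tumors and 209, 255, 100.3 and 170.2 in homozygous tumors, against 132, 148, 63.9 and 64.7 in WT ganglia. Hemizygous tumor 1 was the highest array and every hemizygous tumor exceeded every WT ganglion (log2 fold change 1.45, SE 0.35, adjusted p = 0.0022). In homozygous tumors the difference was 0.77 (adjusted p = 0.08). Against WT ganglia 1 and 2 alone the hemizygous difference was 0.97 (adjusted p = 0.056). The homozygous one passed without WT ganglion 2 at 0.96, without homozygous tumor 3 at 1.01, without the 6 arrays with high Acta1 at 1.08 and against WT ganglia 3 and 4 alone at 1.25.

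The scavenger receptor genes among the members, Mrc1 and Cd163, were lower in tumors or did not pass the test. Mrc1, which encodes the mannose receptor CD206, had 72.4, 70.7, 46.4 and 162 in hemizygous tumors and 64.8, 51.9, 52.6 and 52.2 in homozygous tumors, against 169, 180.1, 94.7 and 130.2 in WT ganglia. All homozygous tumors lay below all WT ganglia (log2 fold change -1.13, SE 0.25, adjusted p = 0.0011), while hemizygous tumor 4 lay among them (log2 fold change -0.70, SE 0.25, adjusted p = 0.029 for the hemizygous group). The hemizygous call was lost when hemizygous tumor 1, 2 or 3 or WT ganglion 1 or 2 was left out, with log2 differences of -0.66, -0.65, -0.49, -0.61 and -0.59. It was also lost against WT ganglia 3 and 4 alone (-0.41, adjusted p = 0.25) and without the 6 arrays with high Acta1 (-0.20, adjusted p = 0.6), and with a pseudocount of 1 (-0.81, adjusted p = 0.062) or a fit of only the arrays compared (-0.70, adjusted p = 0.1). Markers of liver and of fibroblasts were lower in the same tumors. All 5 hepatocyte genes tested and all 7 fibroblast genes were lower in both tumor groups, beside 20.6% (hemizygous) and 20.9% (homozygous) of all probe sets. Among them were Alb (log2 -2.69 in hemizygous and -2.54 in homozygous tumors) and Ttr (-3.80 and -4.11). The summed intensity of 6 hepatocyte genes was 23.3 to 75.3 in hemizygous and 18.4 to 36.5 in homozygous tumors, against 1109 to 1235 in homozygous ganglia and 112 to 4813 in WT ganglia. That of 7 fibroblast genes was 2146 to 5935 in hemizygous and 3955 to 4757 in homozygous tumors, against 14052.5 to 15428 in homozygous ganglia and 15686 to 18200 in WT ganglia. Their part in the Mrc1 difference was not tested. Cd163, the receptor for haemoglobin bound to haptoglobin, was dim everywhere, between 0.322 and 48.5. It had 20.9, 35.2, 5.14 and 24.2 in hemizygous tumors, 24.3, 23.6, 17.9 and 19.99 in homozygous tumors and 20.1, 46.1, 10.4 and 48.5 in WT ganglia, and the groups overlapped (log2 differences -0.31 and -0.24, adjusted p = 0.39 and 0.51).

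**Figure D3:**
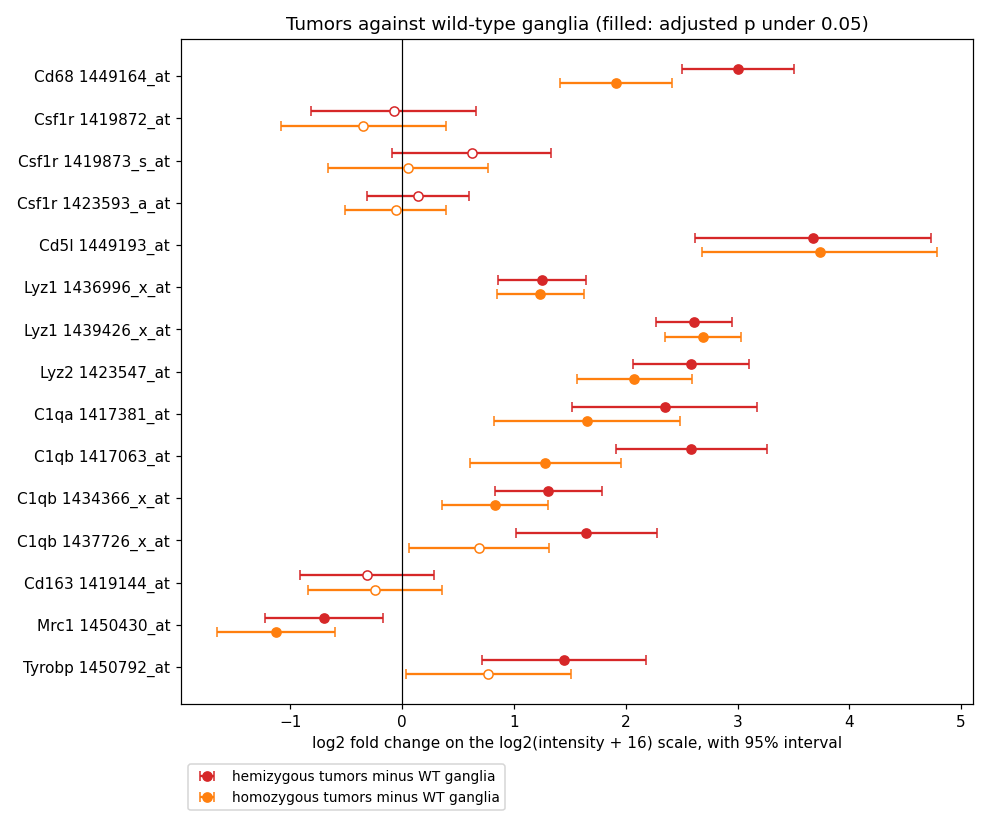
Log2 fold change of each tested member probe set against WT ganglia, with its 95% interval, for hemizygous and homozygous tumors; filled marks have an adjusted p under 0.05. Cd5l, Lyz1, Lyz2, Cd68 and C1qa lie right of 0 in both tumor groups and Mrc1 lies left of 0. The signal of the Lyz1 probe sets shown cannot be told apart from that of Lyz2.

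Hemizygous and homozygous tumors were then compared with each other. Of the 15 probe sets, 2 were higher in hemizygous tumors and 0 lower, against a background of 2.47% higher and 2.65% lower (5.12% in either direction) over all probe sets. At an unadjusted p under 0.05 there were 3 member probe sets, beside 18.5% of all probe sets. The 2 were Cd68 (log2 1.09, 95% interval 0.59 to 1.59, adjusted p = 0.011) and C1qb 1417063_at (log2 1.31, adjusted p = 0.024). This C1qb probe set had 346, 169, 177 and 605 in hemizygous tumors, against 113, 152, 78.1 and 89.3 in homozygous tumors. Hemizygous tumors 1 and 4 were the highest arrays of both. Leaving out hemizygous tumor 1 or 4 ended the C1qb call, at 1.21 and 0.95, as did leaving out homozygous tumor 1, 3 or 4, at 1.34, 1.18 and 1.24. Without homozygous tumor 2 or hemizygous tumor 3, C1qb 1437726_x_at passed, at 1.19 and 1.2. Without the 6 arrays with high Acta1, 5 probe sets passed: both above, C1qb 1437726_x_at (1.43), C1qa (1.13) and Csf1r 1419873_s_at (0.93). Cd5l differed by -0.06 with a 95% interval of -1.12 to 0.99, and the Lyz1 probe sets by 0.02 and -0.08. The summed intensity of 13 pan-leukocyte genes was 1003 to 3491 in hemizygous tumors, against 697 to 869 in homozygous tumors, and that of 8 endothelial genes was 425 to 679, against 175 to 213. Of these, 5 of 13 and 5 of 8 were called higher in hemizygous tumors, and their part in the Cd68 and C1qb differences was not tested.

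Tumors of homozygotes with Mdk KO were set against tumors of homozygotes with Mdk. By limma 0 of the 15 probe sets passed, and 0 had an unadjusted p under 0.05. Over all probe sets 0.00286% passed, which was Mdk itself (log2 -2.41, SE 0.28), and 2.21% had an unadjusted p under 0.05. Csf1r 1419872_at had 523 and 689 in Mdk KO tumors, against 629, 650.5, 428 and 535 in homozygous tumors. Cd68 had 103 and 152 in Mdk KO tumors, Lyz2 1031 and 1678, C1qa 110.4 and 113, Mrc1 69.8 and 98.1 and Tyrobp 178 and 258. The log2 differences ran from -0.19 for Lyz1 1439426_x_at to 0.74 for C1qb 1437726_x_at, whose 95% interval was -0.04 to 1.51. With 2 Mdk KO tumors the intervals were wide: -0.50 to 0.72 for Cd68, -0.98 to 1.60 for Cd5l and -0.17 to 1.12 for Mrc1. Differences of these sizes could not be told from 0 with these arrays.

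Ganglia of homozygotes, which carry the transgene but are not labelled as tumor, were set against WT ganglia. By limma 1 of 15 probe sets passed, against a background of 3.48% higher and 0.862% lower (4.34% in either direction). It was Lyz1 1439426_x_at, with 1224 and 977 in homozygous ganglia, against 424, 535, 317 and 413 in WT ganglia (log2 fold change 1.36, SE 0.20, adjusted p = 0.00026; 0.075 in a fit of only the arrays compared). At an unadjusted p under 0.05 there were 9 member probe sets, beside 20.1% of all probe sets. Both homozygous ganglia lay above all WT ganglia in 9 probe sets, of Cd68, Lyz1, Lyz2, C1qa, C1qb and Tyrobp, and in 14% of all probe sets. Tyrobp, for example, had 308 and 232 in homozygous ganglia, against 132, 148, 63.9 and 64.7 in WT ganglia (log2 1.34, adjusted p = 0.086). Cd68 had 53.6 and 34.9 in homozygous ganglia (log2 0.77, adjusted p = 0.15). The count depended on the WT ganglia, and the share over all probe sets moved with it. Without WT ganglion 2, 6 passed, beside 11.6% of all probe sets. Against WT ganglia 3 and 4 alone 8 passed, beside 28.9%, and without the 6 arrays with high Acta1 7 passed, beside 15.6%. Mrc1 had 132 and 169.6 in homozygous ganglia, within the range of WT ganglia. Csf1r 1419872_at, with 944 and 840.3, likewise lay within it.

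Against the same homozygous ganglia, homozygous tumors were higher in 4 probe sets and lower in 1, with backgrounds of 10.5% and 8.3% (18.8% in either direction). Cd5l had the largest difference of the 15 (log2 4.08, SE 0.62, adjusted p = 0.00028). Lyz1 1439426_x_at rose by 1.33, Lyz2 by 1.2 and Cd68 by 1.14. Mrc1 had 64.8, 51.9, 52.6 and 52.2 in homozygous tumors, against 132 and 169.6 in homozygous ganglia (log2 fold change -1.22, SE 0.31, adjusted p = 0.01). Csf1r 1419872_at and Tyrobp had log2 differences of -0.67 and -0.57 (adjusted p = 0.31 and 0.39). For this Csf1r probe set, a fit of only the arrays compared gave an adjusted p of 0.021 at the same difference, and the replicate number as a block gave -0.24 (adjusted p = 0.67). Lyz1 1436996_x_at, at 0.63, passed in that fit too, and also with a pseudocount of 64 (0.61) and after quantile normalization (0.93). Without homozygous ganglion 2, which was among the arrays with high Acta1, 2 calls were left and those of Cd68 (0.92), Lyz2 (0.96) and Mrc1 (-1.06) were lost. Without the 6 arrays the same calls were lost (0.78, 0.80 and -1.04).

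Sphere cultures, in which tumor or neural cells grow as floating aggregates, were nearly without signal from the macrophage genes. In tumorspheres 14 of 15 probe sets were lower than in hemizygous tumors and 0 higher, against a background of 5.28% lower and 3.95% higher (9.23% in either direction). The median log2 difference was -3.74, beside -0.02 over all probe sets. Over all probe sets 1379 were higher and 1845 lower. After median centring of the arrays 1887 were higher and 1364 lower with a median of 0.09, while 14 member probe sets stayed lower. Lyz2 had 8.42 and 15.01 in tumorspheres, against 1745, 1207, 1006 and 2178 in hemizygous tumors (log2 fold change -5.75, SE 0.30, adjusted p = 5.3e-10). Cd68 had 13.7 and 12.6 in tumorspheres, Csf1r 1419872_at 5.70 and 15.5, C1qa 0.652 and 0.714, Cd5l 8.08 and 0.445 and Tyrobp 8.32 and 10.1. These values lay below the pseudocount of 16, so the fold changes understate the difference. Cd163 missed the threshold (log2 -1.09, adjusted p = 0.059) and passed without hemizygous tumor 3 (-1.34), and also without the 6 arrays (-1.34). Csf1r 1423593_a_at, which passed by -0.85 (adjusted p = 0.049), lost its call when hemizygous tumor 1, 2 or 4 or either tumorsphere was left out (-0.73, -0.81, -0.86, -0.72 and -0.99). It also missed the threshold with the arrays centred or quantile normalized, with a pseudocount of 1 or 64, without the filter and in a fit of only the arrays compared (adjusted p = 0.058 to 0.11).

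Neurospheres against WT ganglia gave 11 probe sets lower and 0 higher, against 16.8% and 17.7% of all probe sets (34.4% in either direction). Lyz2 had 17.7 and 12.4 in neurospheres, against 244, 297, 179 and 221 in WT ganglia (log2 fold change -3.0, SE 0.30, adjusted p = 3.1e-07), and Mrc1 had 7.43 and 6.79 in neurospheres, against 169, 180.1, 94.7 and 130.2 in WT ganglia (log2 -2.75). Cd68 did not pass, with 23.95 and 22.3 in neurospheres and 27.6, 18.2, 11.2 and 20.7 in WT ganglia (log2 0.16, adjusted p = 0.71). Without neurosphere 1, C1qb 1417063_at (-1.43) and Cd163 (-1.07) no longer passed while Csf1r 1423593_a_at did (-0.98), as it did without WT ganglion 1 (-0.84). Without the 6 arrays C1qb 1417063_at was -1.05 and Csf1r 1423593_a_at -0.89. C1qa had a log2 difference of -1.12 (adjusted p = 0.083) and passed without WT ganglion 3 or 4 (-1.44 and -1.43). Between the cultures 1 of 15 probe sets differed, with backgrounds of 18.2% higher and 14% lower (32.2% in either direction). It was Lyz1 1436996_x_at, with 0.347 and 6.12 in tumorspheres, against 27.1 and 12.3 in neurospheres (log2 fold change -0.88, SE 0.26, adjusted p = 0.015), and its call was lost without neurosphere 1 (-0.57) or tumorsphere 1 (-0.66). The culture-minus-tissue difference was further below 0 in the tumor pair than in the WT pair for 9 of 15 probe sets by a test of the difference itself, against 15.4% of all probe sets, and further above 0 for none of the 15, against 13.2% (28.7% in either direction). For Cd68 that difference was -3.43 and for Lyz2 -2.75. In tissue both were higher in hemizygous tumors than in WT ganglia. By its terms the contrast equals tumorspheres against neurospheres minus hemizygous tumors against WT ganglia. With both cultures near the floor, it adds no result separate from the tissue comparison. The tissue from which the neurospheres were grown is not given, so the WT pair may not be a culture and its own tissue.

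**Figure D4:**
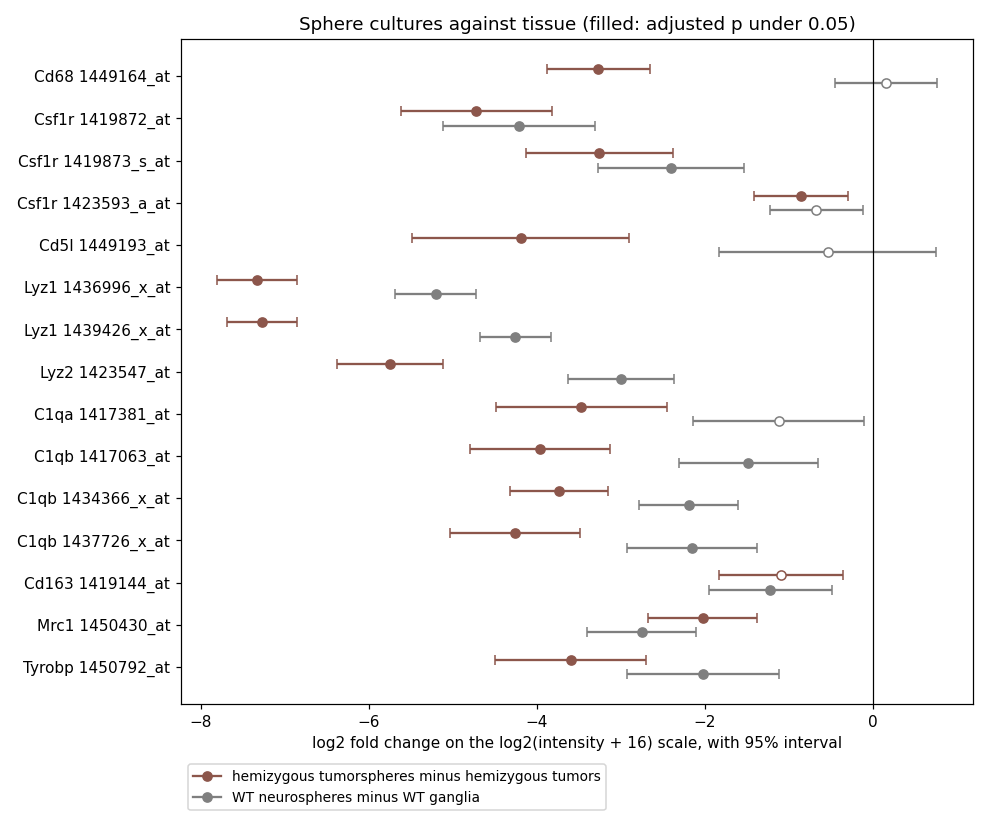
Log2 fold change of each tested member probe set, with its 95% interval, in tumorspheres against hemizygous tumors and in neurospheres against WT ganglia; filled marks have an adjusted p under 0.05. Lyz1, whose signal cannot be told apart from that of Lyz2, lies furthest to the left in both. Cd68 lies at -3.27 in tumorspheres and at 0.16 in neurospheres.

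Genes that work with the members were counted in lists by role, 1 probe set a gene. Genes named beyond the first 4 of a list are named because they passed. The background is that of all probe sets, 26.8% higher and 20.6% lower in hemizygous tumors and 25.8% higher and 20.9% lower in homozygous tumors than in WT ganglia. In hemizygous tumors the share of genes higher was near this background in the complement, macrophage identity and chemokine lists and below it in the list of CSF1 receptor ligands and myeloid factors. It was above the background in the ITAM, lysosomal, scavenger, activation and pan-leukocyte lists. In homozygous tumors it was above the background in the ITAM list alone. The share of genes lower was furthest above its background in the complement and chemokine lists, in both tumor groups. The ITAM list is broad, with partners of ITAM adaptors such as Tyrobp, Fc receptor genes and others such as Laptm5. Of its 15 genes tested, 10 were higher and 0 lower in hemizygous tumors than in WT ganglia. In homozygous tumors 5 were higher and 2 lower. Laptm5, Clec7a and Sirpa were among those higher in both. The median log2 differences were 1.13 in hemizygous and 0.20 in homozygous tumors. Over all probe sets the medians were 0.02 and -0.01. Fcer1g, the other common adaptor, averaged 106 ± 80.0 in hemizygous tumors and 24.1 ± 6.17 in homozygous tumors, against 19.7 ± 9.85 in WT ganglia (log2 1.55, adjusted p = 0.0013 and log2 0.20, adjusted p = 0.67). The kinase gene Syk had 113 ± 68.6 in hemizygous tumors, against 29.9 ± 4.54 in WT ganglia (log2 1.33, adjusted p = 0.0016), and the receptor gene Trem2 had 11.5 ± 5.44, against 1.80 ± 0.922 (log2 0.61, adjusted p = 0.0068; SD, n = 4 each). Fcgr3, an activating Fc receptor gene, was higher by 1.12 (adjusted p = 0.00012). In homozygous tumors Trem2 was higher by 0.54 (adjusted p = 0.014), while Syk (0.11) and Fcgr3 (0.43) did not pass.

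The complement list held genes of both directions, with medians of 0.28 in hemizygous and -0.89 in homozygous tumors. C1qc, the remaining C1q chain, averaged 269.7 ± 164 in hemizygous tumors and 101 ± 35.8 in homozygous tumors, against 37.5 ± 18.6 in WT ganglia (log2 2.34, adjusted p = 8.9e-06 and log2 1.16, adjusted p = 0.0069). Of 11 genes tested, 3 were higher (C1qc, Itgb2 and Cfp) and 5 lower (C2, C1ra, C1s1, Serping1 and Cd55) in hemizygous tumors. C1ra and C1s1 encode the proteases of the C1 complex, and Serping1 encodes the inhibitor of those proteases. The same 5 were lower in homozygous tumors, where C1qc and Cfp were higher. C3ar1, the receptor gene for C3a, did not pass (log2 0.47, adjusted p = 0.085 in hemizygous and log2 -0.25, adjusted p = 0.36 in homozygous tumors). C5ar1 and Itgam did not exceed the filter.

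Of 17 lysosomal genes, 7 were higher and 4 lower in hemizygous tumors, and 3 were higher and 4 lower in homozygous tumors (medians 0.40 and -0.06). Ctsd, a cathepsin gene, had 1406 ± 343 in hemizygous tumors, against 494 ± 233 in WT ganglia (log2 1.57, adjusted p = 0.00015), and Ctsz had 696 ± 246, against 118 ± 112 (log2 2.86, adjusted p = 0.00011). Both were higher in homozygous tumors too (0.94 and 2.62). Another cathepsin gene, Ctss, was higher in hemizygous tumors (log2 0.78, adjusted p = 0.0044) and at -0.07 in homozygous tumors, and Ctsb passed in neither (log2 0.03, adjusted p = 0.9; log2 -0.33, adjusted p = 0.087). The 4 that were lower, Ctsk, Ctsl, Lamp1 and Lamp2, include 2 genes for structural proteins of the lysosomal membrane. Of 15 scavenger and uptake genes, 7 were higher and 4 lower in hemizygous tumors, and 3 and 2 in homozygous tumors (medians 0.49 and -0.33). Msr1, which encodes a receptor for modified lipoproteins, had 129 ± 48.0 in hemizygous tumors and 67.4 ± 21.2 in homozygous tumors, against 29.5 ± 22.2 in WT ganglia (log2 1.74, adjusted p = 0.0001 and log2 0.97, adjusted p = 0.013). Marco, another receptor of that class, had 20.1 ± 16.7 and 20.8 ± 13.9, against 1.42 ± 0.812, and was called higher in both (log2 0.92 and 0.98). Stab1 and Mertk, receptor genes for the uptake of altered proteins and dying cells, were higher in hemizygous tumors (log2 0.79 and 0.70) and at 0.09 and 0.25 in homozygous tumors, which did not pass.

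Of 16 genes of macrophage identity, 4 were higher and 2 lower in hemizygous tumors, and 2 and 3 in homozygous tumors, with medians of 0.05 and -0.14. Adgre1, which encodes the surface marker F4/80, had 181 ± 58.4 in hemizygous tumors and 108 ± 18.6 in homozygous tumors, against 357 ± 187 in WT ganglia (log2 -0.84, adjusted p = 0.038 and log2 -1.45, adjusted p = 0.001). Mpeg1, a pore-forming gene of phagosomes, had 811 ± 304 in hemizygous tumors and 397 ± 68.6 in homozygous tumors, against 158 ± 38.3 in WT ganglia (log2 2.19, adjusted p = 1.3e-06 and log2 1.26, adjusted p = 0.00055). Aif1 and Cx3cr1 did not pass (log2 0.06, adjusted p = 0.82; log2 0.49, adjusted p = 0.27 in hemizygous tumors), nor in homozygous tumors (-0.26 and 0.54). Of 12 ligands of the CSF1 receptor and myeloid transcription factors, 2 were higher and 3 lower in hemizygous tumors, and 0 and 3 in homozygous tumors (medians 0.00 and -0.15). Csf1, a ligand of the Csf1r product, had 19.9 ± 6.52 in hemizygous tumors and 19 ± 3.81 in homozygous tumors, against 49.4 ± 14.2 in WT ganglia (log2 -0.86, adjusted p = 0.00063 and log2 -0.88, adjusted p = 0.00053). Il34, the other ligand, did not pass (log2 -0.04, adjusted p = 0.87; log2 -0.06, adjusted p = 0.82), nor did Spi1, which encodes PU.1 (log2 0.25, adjusted p = 0.27; log2 -0.18, adjusted p = 0.45). Irf8 was higher in hemizygous tumors (log2 1.14, adjusted p = 8.3e-05) and did not pass in homozygous tumors (0.39, adjusted p = 0.11).

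Of 13 chemokine and receptor genes, 3 were higher and 4 lower in hemizygous tumors, and 0 and 6 in homozygous tumors, with medians of -0.08 and -0.46. Ccl2, the main monocyte attractant, had 25.7 ± 14.4 in hemizygous tumors and 8.26 ± 3.25 in homozygous tumors, against 9.25 ± 5.82 in WT ganglia (log2 0.69, adjusted p = 0.011 and log2 -0.04, adjusted p = 0.9). Ccl8 was higher in hemizygous tumors (log2 1.01, adjusted p = 0.00012; 0.07 in homozygous tumors), Ccl12 was lower in both (-0.81 and -0.96), and Ccl7 passed in neither (-0.08 and -0.46). Of 12 activation products, 5 were higher and 1 lower in hemizygous tumors, and 1 and 1 in homozygous tumors (medians 0.15 and -0.26). Arg1, an arginine-degrading enzyme gene, had 57.8 ± 48.9 in hemizygous tumors, against 118 ± 139 in WT ganglia (log2 -0.21, adjusted p = 0.83). The cytokine genes Il1b and Tnf passed in neither tumor group (0.07 and 0.15 in hemizygous, -0.38 and -0.34 in homozygous tumors), and Nos2 did not exceed the filter. Of 13 pan-leukocyte genes, 7 were higher and 0 lower in hemizygous tumors, and 1 and 0 in homozygous tumors (medians 0.79 and -0.16). Ptprc, which encodes CD45, had 512 ± 393 in hemizygous tumors and 138 ± 25.3 in homozygous tumors, against 147 ± 27.0 in WT ganglia (log2 1.41, adjusted p = 0.0033 and log2 -0.09, adjusted p = 0.87). Lcp1 was higher in hemizygous tumors (log2 1.75, adjusted p = 4.2e-05; 0.19 in homozygous tumors), and Cd52 and Cd53 passed in neither (0.86 and 0.50 in hemizygous, -0.62 and -0.18 in homozygous tumors).

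Of 6 neutrophil markers tested, 4 were lower in hemizygous and 6 in homozygous tumors, beside 20.6% and 20.9% of all probe sets. Their summed intensity was 37.6 to 59.7 and 34.8 to 63.2, against 84.5 to 396 in WT ganglia. Neutrophils also make lysozyme, and their part in the lysozyme signal was not tested. Of 3 T cell and NK cell markers that exceeded the filter, out of 10, none was higher in either tumor group and 2 were lower in homozygous tumors, Cd8a (log2 -0.93, adjusted p = 0.022) and Zap70 (-0.46, adjusted p = 0.049). The sum over the 10 was 149.5 to 198 and 103 to 145, against 190.3 to 286 in WT ganglia. Of 8 endothelial genes, 4 were higher in hemizygous and 3 lower in homozygous tumors, beside 26.8% and 20.9% of all probe sets. In tumorspheres no gene of the 9 lists of macrophage and leukocyte genes was higher than in hemizygous tumors, beside 3.95% of all probe sets. Lower there, beside 5.28% of all probe sets, were 14 of 17 lysosomal, 11 of 13 pan-leukocyte, 11 of 16 identity, 9 of 15 ITAM, 7 of 15 scavenger, 6 of 11 complement and 6 of 13 chemokine genes. The others were 4 of 12 in the list of CSF1 receptor ligands and myeloid factors and 2 of 12 activation products.

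**Figure D5:**
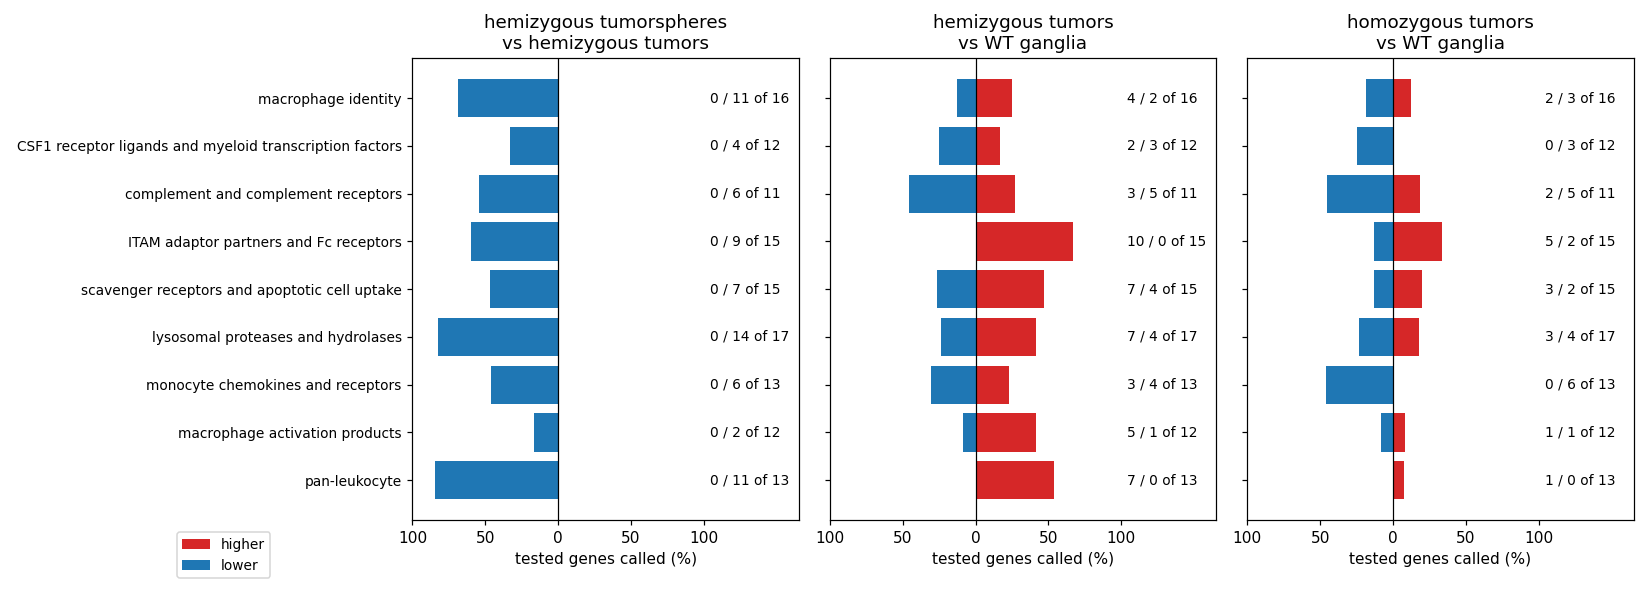
Percent of the tested genes of each of the 9 lists that were higher (red, to the right) or lower (blue, to the left) in tumorspheres against hemizygous tumors, hemizygous tumors against WT ganglia and homozygous tumors against WT ganglia, with the counts printed beside the bars. Against WT ganglia, the ITAM list has 10 of 15 genes higher in hemizygous tumors and the complement list 5 of 11 lower in both tumor groups.

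Across the 20 arrays, the genes whose log2 intensities were most like the mean of the standardized members, among 15139 genes, were Laptm5 (Pearson r 0.981), Slc40a1 (0.976), Cybb (0.964), Mpeg1 (0.958), Ikzf1 (0.948), Bgn (0.939), Ctss (0.939), Ms4a7 (0.938), Tgm2 (0.936) and Ms4a6d (0.934). Laptm5 encodes a lysosomal protein of blood cells, Slc40a1 the iron exporter ferroportin, and Bgn a matrix proteoglycan. Laptm5 had 755 ± 422 in hemizygous tumors and 519.6 ± 87.5 in homozygous tumors, against 279 ± 88.7 in WT ganglia, and Slc40a1 had 837 ± 396 and 443 ± 96.8, against 241 ± 121. For Cd5l alone the most alike were Gpnmb (0.955), Mbnl3 (0.917), Ahctf1 (0.911), Podxl (0.891) and Gnptab (0.889). These arrays share groups, with both cultures at the low end, so the correlations describe the set and carry no test. Among the members, Csf1r 1419872_at and Mrc1 had an r of 0.906, Cd68 and Cd5l 0.861, Cd68 and Csf1r 0.503, and Cd5l and Mrc1 0.147. Other members that were higher in tumors followed both Cd68 and Csf1r 1419872_at: Lyz2 had an r of 0.846 with Cd68 and 0.852 with Csf1r, and Tyrobp 0.752 with Cd68 and 0.896 with Csf1r. The mean standardized log2 value, where 0 is the mean of the 20 arrays, was -1.64 and -1.64 in tumorspheres, 1.01, 0.73, 0.21 and 1.06 in hemizygous tumors, 0.43 and 0.73 in Mdk KO tumors, 0.41, 0.64, 0.33 and 0.38 in homozygous tumors, 0.31 and 0.28 in homozygous ganglia, -1.46 and -1.48 in neurospheres and 0.04, 0.23, -0.45 and -0.12 in WT ganglia. Every tumor array and both homozygous ganglia had a value above 0, and 2 of the 4 WT ganglia did. Hemizygous tumor 3, at 0.21, lay below WT ganglion 2, at 0.23, and below both homozygous ganglia.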

How the data were processed

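RNA of 20 mouse samples was measured on 1 array each. Per the labels' protocols, 40 ng of total RNA went into a two-cycle synthesis of biotin-labelled cRNA. The deposited values are intensities, 1 per probe set. Their mean after trimming 2% at each end was 100 on every array, so the authors had scaled the arrays. The sources used here name no software for this. The number of arrays limits the precision.

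Values were taken as log2(intensity + 16) without further normalization, since array medians spanned 0.33, under a limit of 0.5. After 64 control probe sets were removed, 45037 were left, of which 34945 had 1 gene symbol, 932 several and 9160 none. Symbols were updated by gene ID through a GRCm38.p6 gene table for 34741 and kept for 204. A probe set was tested if 2 or more arrays had it above their 40th percentile, which 34922 did. All 20 arrays were fitted with 7 group means in limma 3.58.1 under R 4.3.3, by lmFit and eBayes, with 13 residual degrees of freedom, two-sided contrasts, Benjamini-Hochberg adjustment over all tested probe sets and a threshold of 0.05. Fold changes on this scale understate the change of dim probe sets. List genes are represented by their brightest probe set. The fit was tested on simulated data. Tables and figures were made with Python 3.11.15, pandas 2.3.3, numpy 2.4.6 and matplotlib 3.10.9.

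The members and gene lists were chosen with earlier results of these data known. Named genes are all members, the first 4 array genes of each list (for marker lists of other cells, which are given by counts and sums, few are printed), Mdk, and the genes most alike to the member mean (10) and to Cd5l (5); others were named because they passed. List genes without a probe set of 1 symbol were not analysed here. No 2 arrays shared more than 0.0022% of values, so none was a copy of another, and each was entered as 1 sample. Such a check cannot show whether arrays come from separate animals. The alternatives were pseudocounts of 1 and 64, median centring, quantile normalization, a filter at the 60th percentile or none, 1 probe set per gene, a replicate block, a fit of only the arrays compared, either pair of WT ganglia alone, leaving out each replicate and, chosen after seeing the data, leaving out the 6 arrays with Acta1 over 100.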

Additional observations from a re-analysis of the deposited data

Results flagged for a closer look

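In groups of 4 arrays, Dixon's test was applied to the 15 member probe sets in 3 groups, which makes 45, and 4 had 1 array apart from the others. Chance alone gives about 1 in 20. Cd68 was 158 in homozygous tumor 2, above the other homozygous tumors at 99.6 to 107. Csf1r 1419872_at was 289 in hemizygous tumor 3, against 808 to 961 in the other three. Cd5l was 80.5 in homozygous tumor 1, against 529.8 to 612 in the others. Mrc1 was 64.8 in homozygous tumor 1, just above the others at 51.9 to 52.6. Hemizygous tumor 3 and homozygous tumor 2 were among the arrays with Acta1 over 100, and the part this had in their values was not tested.

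The difference between culture and tissue was compared between the tumor pair (tumorspheres minus hemizygous tumors) and the WT pair (neurospheres minus WT ganglia). It passed for 9 of 15 probe sets, all further below 0 in the tumor pair. Over all probe sets 28.7% passed in either direction, 15.4% in that direction and 13.2% in the other. The log2 values of the 9 were -3.43 for Cd68, -3.66 for Cd5l, -2.13 and -3.02 for Lyz1 1436996_x_at and 1439426_x_at, -2.75 for Lyz2 and -2.35 for C1qa. For C1qb they were -2.48 (1417063_at), -1.55 (1434366_x_at) and -2.11 (1437726_x_at). Csf1r, Mrc1, Tyrobp and Cd163 were not among them. In both cultures no member other than Csf1r exceeded an intensity of 27.1, and the part that this floor had in the difference was not tested. By its terms the contrast equals tumorspheres against neurospheres minus hemizygous tumors against WT ganglia. It is therefore not a result separate from those comparisons.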

How the results depend on the processing

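Counts of called member probe sets stayed within 1.5 times their reported value in 85 of 98 comparisons with another setting and in 49 of 58 with 1 array left out. Leaving out 1 array gave 10 to 11 for hemizygous tumors and 9 to 11 for homozygous tumors against WT ganglia, 1 to 3 between them, 0 for Mdk KO, 1 to 6 for homozygous against WT ganglia and 2 to 5 for homozygous tumors against homozygous ganglia. It gave 13 to 15 for tumorspheres against hemizygous tumors, 0 to 1 between the cultures and 10 to 12 for neurospheres against WT ganglia. Percents in parentheses give the share of all probe sets called under the same setting. Hemizygous against homozygous tumors changed from 2 calls (5.12%) to 1 with a pseudocount of 1 (2.9%) or with 1 probe set per gene (6.25%). It changed to 5 (3.61%) without the arrays with Acta1 over 100, a setting chosen after seeing the data. Homozygous against WT ganglia changed from 1 (4.34%) to 0 with 1 probe set per gene (5.09%) or only the arrays compared (0.796%). It changed to 8 with WT ganglia 3 and 4 alone (28.9%) and to 7 without the Acta1 arrays (15.6%). Homozygous tumors against homozygous ganglia changed from 5 (18.8%) to 2 (8.23%) without the Acta1 arrays. With 1 probe set per gene, fewer were tested, and tumorspheres gave 9 of 10 (12.6%) and neurospheres 7 of 10 (39.2%). Between the cultures the 1 call (32.2%) became 3 with a pseudocount of 1 (30.2%). It became 0 with a pseudocount of 64 (31.4%) or only the arrays compared (22.4%). Without the Acta1 arrays Csf1r 1419872_at in hemizygous tumors against WT ganglia reversed to 0.94; the cause was not tested. For single probe sets under other settings the call was unchanged in 1357 cases, in 46 of which the sign turned without a call, while 25 lost and 42 gained a call. With 1 array left out it was unchanged in 828, with the sign turned in 52, and 22 lost and 20 gained a call. With the replicate number as a block the counts were 11, 11, 3, 0, 1, 6, 14, 1 and 12, against 11, 9, 2, 0, 1, 5, 14, 1 and 11 without it, in the order of hemizygous and homozygous tumors against WT ganglia, both against each other, Mdk KO, homozygous ganglia, homozygous tumors against those, tumorspheres against tumors, the cultures, and neurospheres. In the same order, the shares of all probe sets called with the block were 47.2%, 46.2%, 4.62%, 0.00286%, 2.43%, 13.1%, 8.09%, 31.7% and 33.2%. Without it they were 47.4%, 46.7%, 5.12%, 0.00286%, 4.34%, 18.8%, 9.23%, 32.2% and 34.4%. The block added calls of C1qb 1437726_x_at (0.69, adjusted p = 0.043) and Tyrobp (0.77, adjusted p = 0.035) in homozygous tumors against WT ganglia. The labels do not pair the numbers. Same-numbered samples had correlations of deviations from their group means of 0.077 to 0.24 for homozygous tumors and WT ganglia, with 3 of 4 over 0.1, of -0.27 to -0.03 for hemizygous tumors and WT ganglia and of -0.32 to -0.17 between the tumor groups, so the numbers were not taken to pair samples. Dim probe sets such as Cd163 and all members in culture are limited by signal near the floor.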
